A study of Caenorhabditis elegans with 2 samples.

Results

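The regions described here are the autosomal intergenic peaks of C06A6.2 binding that lie far from annotated start sites. They are the peaks on chromosomes other than X whose summit, the point the deposited list marks within each peak, lies outside every protein-coding gene body. The peaks were taken from the conservative list, one of 2 joint lists that the authors thresholded on the irreproducible discovery rate between replicates. The summit also lies more than 500 bp from every transcription start site (TSS) of a protein-coding gene and from the 5′ end of every non-coding RNA gene in the Ensembl annotation of WBcel235. Pseudogenes were not counted as genes for this rule. The rule uses position only, and no measured value of a peak entered it. It found 213 of the 1346 peaks in the conservative list, which is 19.7% (95% Wilson interval 17.5 to 22.2) of the 1079 autosomal peaks.

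The peaks come from chromatin immunoprecipitation sequencing (ChIP-seq) of whole Caenorhabditis elegans. There was 1 group with 2 biological replicates: strain OP810, young adults of 67 hours grown from larvae that were starved at the L1 stage after bleaching, and precipitated with an antibody to GFP. The worms carry the integrated transgene wgIs810, a C06A6.2 gene with a TY1, EGFP and 3xFLAG tag together with unc-119(+), in the mutant background unc-119 (tm4063), so both libraries are of 1 transgenic strain. No second strain and no library without the tag was analysed here, so the comparisons are between the replicates, between these peaks and other peaks, and between peaks and the DNA around them. The libraries are of whole animals, so a site bound strongly in few cells and one bound weakly in many cannot be told apart.

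The C. elegans genome is compact, and most regulatory DNA sits close to the start of a gene, so binding sites far from any start site are candidates for distal elements such as enhancers. Intergenic DNA also holds pseudogenes, non-coding RNA genes and copies of DNA transposons, which often end in inverted repeats. ChIP-seq fragments from near-identical repeat copies can be hard to place on a single copy. Short words such as GA repeats are common in worm promoters, and the palindrome CACGTG is the E-box bound by many basic helix-loop-helix proteins.

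The sequences here, from the RefSeq genome of WBcel235 and written 5′ to 3′ on the strand given, are a selection from these peaks, and the one near rpa-2, among others, is not printed. The first 7, each 50 bases long, are shown because their summits lie in sequences that recur in the genome. Their capitals mark the first 25 bases of the run that 3 strong peaks of the same repeat family have in common, and the lower case is the DNA outside it. The strongest peak of all 213, near F09E5.14, the peak near vps-39 and the peak near F44E7.4 share the start of such a run, called family 1.
chrII:5346526-5346575, plus strand: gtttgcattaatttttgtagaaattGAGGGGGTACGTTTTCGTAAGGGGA
chrV:14038879-14038928, minus strand: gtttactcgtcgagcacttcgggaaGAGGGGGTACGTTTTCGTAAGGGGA
chrV:5778425-5778474, minus strand: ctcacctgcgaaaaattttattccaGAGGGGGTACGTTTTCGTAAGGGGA
The peaks near K07D4.2 and Y116A8A.150 share that of family 2.
chrII:4047975-4048024, plus strand: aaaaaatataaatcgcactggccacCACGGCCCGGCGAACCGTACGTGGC
chrIV:16845534-16845583, plus strand: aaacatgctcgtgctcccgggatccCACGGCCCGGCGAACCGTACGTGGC
A pair of peaks on either side of K08F11.1 share that of family 3.
chrIV:4727998-4728047, plus strand: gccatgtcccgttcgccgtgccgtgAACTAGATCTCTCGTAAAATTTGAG
chrIV:4720694-4720743, minus strand: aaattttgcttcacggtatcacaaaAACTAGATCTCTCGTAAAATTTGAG
The next sequences are the 101 bp centred on the summits of the peaks near T04C4.3, F58D12.3 and Y17G7B.17, which are in no repeat family. They show the words that recur among the 213 peaks, with GAGAGA in capitals, likewise ACGCAG and its extension GAGACGCAG, each in either orientation.
chrIV:2219587-2219687, plus strand: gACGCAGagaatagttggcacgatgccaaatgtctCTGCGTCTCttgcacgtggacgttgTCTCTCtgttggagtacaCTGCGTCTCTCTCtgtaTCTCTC
chrV:14055169-14055269, plus strand: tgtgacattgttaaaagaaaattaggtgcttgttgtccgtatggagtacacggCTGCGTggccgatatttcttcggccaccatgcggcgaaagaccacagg
chrII:12102539-12102639, plus strand: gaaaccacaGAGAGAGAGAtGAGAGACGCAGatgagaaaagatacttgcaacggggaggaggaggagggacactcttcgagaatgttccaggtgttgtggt
The last 3 are the summit windows of strong peaks in no repeat family, near sup-26, cmd-1 and cbp-1, and show summits with few or none of these words.
chrIII:4282133-4282233, plus strand: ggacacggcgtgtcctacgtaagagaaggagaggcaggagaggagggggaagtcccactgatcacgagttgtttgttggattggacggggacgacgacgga
chrV:1151463-1151563, plus strand: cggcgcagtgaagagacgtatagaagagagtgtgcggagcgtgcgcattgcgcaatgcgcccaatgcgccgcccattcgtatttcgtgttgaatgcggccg
chrIII:9765587-9765687, plus strand: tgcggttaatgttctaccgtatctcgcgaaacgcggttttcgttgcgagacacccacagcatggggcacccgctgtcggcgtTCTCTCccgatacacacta

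The typical signal of these peaks was close to that of the rest of the list. Their signal, the peak caller's deposited value for a peak, had a median of 87.0 (quartiles 69.2 to 115.4, lowest 2.17, highest 822), against 87.8 (69.9 to 126) for the 866 other autosomal peaks. The strongest peak of the whole list, with a signal of 1433, was a promoter peak, that is, within 500 bp of a TSS, and the strongest of the 213 ranked 4th, 7th and 9th of 1346.

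The peak of highest joint signal was second to the next one in replicate 1 and first in replicate 2. Its coordinates are 5346448 to 5346707 of chromosome II, with the nearest TSS (F09E5.14) 1688 bp and an annotated pseudogene (WBGene00017287) 241 bp away. Its signal of 822 in the joint list came with 352 in replicate 1 and 470 in replicate 2. The second, at 14038716 to 14038981 of chromosome V, is 505 bp from the TSS of vps-39, a vacuolar protein sorting gene, and 13 bp from a pseudogene. Replicate 1 gave 357 and replicate 2 gave 379. The third, at 4769485 to 4769774 of chromosome I, is 676 bp from the TSS of rpa-2, named for a subunit of the single-stranded DNA binding protein RPA, and had 333 and 365 in replicates 1 and 2. How the joint list and the replicates' own lists are scaled to each other is not stated. All 3 belong to repeat families, and all 3 were high in both replicates.

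The strongest peak outside any repeat family, at 4281959 to 4282438 of chromosome III, is 1959 bp from the TSS of sup-26, which encodes an RNA-binding protein. Replicate 1 gave 274 and replicate 2 gave 325, and at 480 bp it was the widest of the 213. The next such peak, on chromosome IV at 2219510 to 2219767 and 2781 bp from the TSS of T04C4.3, had 167 in replicate 1 and 262 in replicate 2. The peak 2621 bp from the TSS of F58D12.3 (chromosome V, 14055097 to 14055329) had 162 in replicate 1 and 248 in replicate 2. Each of these summits was made of DNA that occurs once in the genome, as judged by words of 36 bases. Replicate 2 gave the higher value for all of them, in lists whose scaling to each other is not stated.

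Other strong peaks lay at varied distances from their nearest start site. The peak at 9765530 to 9765748 of chromosome III is 872 bp from the TSS of cbp-1, the worm homologue of the CBP and p300 histone acetyltransferases, and gave 142 in replicate 1 and 224 in replicate 2. One at 2973965 to 2974196 on chromosome II, 2569 bp from the TSS of the nuclear hormone receptor gene nhr-88, had 143 and 172 in replicates 1 and 2. A peak on chromosome IV at 3313418 to 3313608, 2240 bp from the TSS of the bZIP gene zip-11, had 140 and 189, and belongs to family 2. On chromosome V, 4758 bp from the TSS of the calmodulin gene cmd-1, a peak inside the non-coding RNA gene linc-128 (1151391 to 1151612) had 188 in replicate 1 and 202 in replicate 2. The nearest start site is given here as a position and says nothing about which gene, if any, a site acts on.

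The 20 peaks of highest signal were all in the thresholded lists of both replicates. Those not described elsewhere in the text lay near the neuropeptide-like gene nlp-40, ipla-6, Y54G11A.2 and exc-14, with signals from 209 to 237. Of these 20, 10 were in a repeat family, as were 6 of the other 193. Chromosome III had only 2 peaks among the 20, and the next on it lay near mtm-3 at 3801396 to 3801715, with 70.4 in replicate 1 and 96.1 in replicate 2.

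Support from the separate replicates was uneven, much as it was over the whole list. Of the 213 peaks, 81 overlapped a peak by at least 1 bp in the thresholded lists of both replicates, which is 38.0% (31.8 to 44.7), where 38.6% of all conservative peaks did. Another 33 (15.5%) did so only in the list of replicate 1, 30 (14.1%) only in that of replicate 2, and 69 (32.4%) in neither. Over all conservative peaks these shares were 14.6%, 14.4% and 32.5%. The thresholded lists of replicates 1 and 2 were shorter, with 594 and 630 autosomal peaks against 1079 in the conservative list, which limits the share in both. The median signal was 128 for the 81 in both lists, 83.4 for those of replicate 1 alone, 87.9 for those of replicate 2 alone and 68.9 for the 69 in neither.

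In the longer ranked lists, which are not thresholded, 210 of the 213 had an overlapping peak in both replicates. Replicate 2 had the higher signal at 135 of them and replicate 1 at 75, with a median ratio of replicate 2 to replicate 1 of 1.11, and the ratio was 1.14 at 855 other autosomal peaks. How the lists of the 2 replicates are scaled to each other is not stated. A higher value in replicate 2 therefore cannot be read as more binding. The order of the peaks was shared only in part. Spearman's rho between the replicates was 0.66 over the 210 peaks and 0.64 over the 855, which describes peaks of 2 libraries and is not a test.

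**Figure D1:**
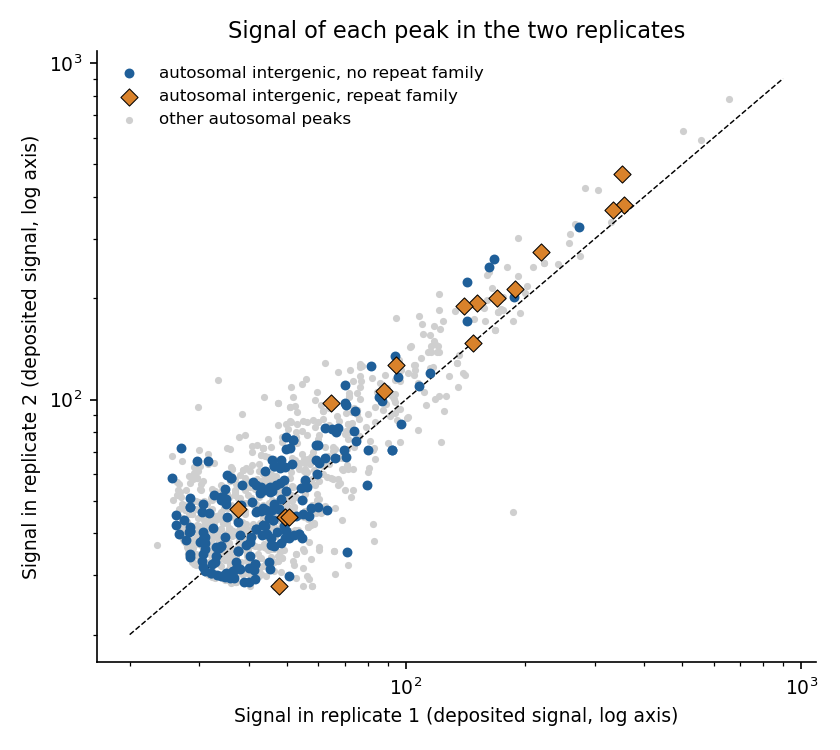
Signal of each peak in replicate 1 (x axis) and replicate 2 (y axis), in the deposited signal units on log axes, for 210 autosomal intergenic peaks and 855 other autosomal peaks found in both ranked lists. Most peaks of high signal lie near or above the dashed line of equal signal, with 1 grey peak far below it (187 in replicate 1 and 46.3 in replicate 2). Another grey peak has the same value in replicate 1 and 171 in replicate 2, so both may be matched to a single peak of replicate 1. Peaks of low signal scatter widely, and peaks of the repeat families (diamonds) fill much of the upper range of the autosomal intergenic peaks.

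Peak width split the class. A width of exactly 320 bp was found at 179 of the 213 peaks, or 84.0% (78.5 to 88.3), where 83.9% of all conservative peaks had it. The 33 narrower peaks had a median signal of 216, and 32 of them were in both replicates' thresholded lists. The 179 peaks of 320 bp had a median of 83.0, and 48 of them were in both lists.

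A small set of peaks had very low signals. A signal under 40 was found for 21 of the 213 peaks (9.86%, 6.54 to 14.6), where 9.29% of all conservative peaks were that low. Of these 21, 19 overlapped a stronger peak of the list. The lowest 3 were on chromosome V at 14368467 to 14368786 near unc-39 (signal 2.17) and on chromosome II at 10559390 to 10559709 near cdc-48.1 (3.35) and 10029313 to 10029632 near ttc-36 (4.56). Merging overlapping peaks left 196 separate sites. The word GAGAGA was at 2 of the 21 low peaks and at 71 of the 192 others.

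Some sequences that recur in the genome were found at many of the strongest of the 213 sites, but recurring windows in general did not have the higher signals. Summit windows, the 101 bp centred on a summit, were compared with the whole genome. Peaks whose windows matched over at least 50 bp at 80% identity or more were joined into families, directly or through other peaks. There were 4 families with at least 2 of the 213 peaks, holding 16 of the 213 in all. The median signal of these 16 was 310 (quartiles 147 to 419), and that of all 213 was 87.0. A near-identical copy elsewhere, over at least 80 bp at 90% identity, was found for 25 of the 213 windows (11.7%, 8.08 to 16.8), where 10.7% of all conservative peaks had one. These 25 peaks had a median signal of 84.0, and the 188 without such a copy 87.0. In both replicates' thresholded lists were 32.0% of the 25 and 38.8% of the 188. With the lower limits of the families, the share was 20.7%, and 19.9% over all conservative peaks. The most repeated windows were near T02H6.11 (1621 matches elsewhere, 48.4 in replicate 1 and 37.5 in replicate 2), zip-12 (760 matches, 30.95 in each replicate) and Y105E8B.9 (559 matches, 45.0 in replicate 1 and 54.6 in replicate 2). Most windows were unique all the same: in 179 of 213 (84.0%) every word of 36 bases occurred once in the genome, where 84.6% of all conservative windows were like this.

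Family 1 held the strongest sites. Its 16 peaks, of which 4 are among the 213, included 7 of the 20 strongest peaks of the whole list and the strongest of all. The other 12 were 11 promoter peaks and 1 in a gene body. The window of the peak near F09E5.14 had 24 copies in the genome, itself included, and 16 of them carried a conservative peak. Any overlap counted as carrying a peak, so these are not all peaks of the family. A copy on chromosome I overlapped a peak of signal 59.4 whose summit lay outside the copy, and that peak is not in the family. Its pair is counted below among those with peaks at both copies. Of the 24 copies, 22 lay in pairs and the other 2, without a peak, did not. In the 11 pairs, neighbouring copies faced opposite ways and spanned 398 to 4101 bp, with peaks at both copies in 7 pairs, at 1 copy in 2 pairs and at neither in 2 pairs. In the 3 sequences shown for family 1, the summits were at base 13 (near F09E5.14), base 21 (near vps-39) and base 9 (near F44E7.4) of the shared run.

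The pairs with a member of the class can be followed copy by copy. The peak near F09E5.14 (signal 822) is paired with a promoter peak of signal 378 at a span of 4101 bp. The peak near F44E7.4 (chromosome V, 5778307 to 5778516) had a signal of 371, with 170 in replicate 1 and 200.5 in replicate 2, and is paired with a promoter peak of signal 672 at a span of 1339 bp. The peak near vps-39 (725) is paired at a span of 398 bp with a copy that carried no peak. The fourth, near Y48G10A.1 on chromosome I (13488801 to 13489120, signal 101), is paired with a promoter peak of signal 171 at a span of 1390 bp. It had 49.5 in replicate 1 and 44.7 in replicate 2.

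A matching sequence was not enough for a peak to be listed. Of the 8 family 1 copies without a conservative peak, 3 matched the aligned stretch at 100% identity, and none of the 8 had a peak in the ranked list of either replicate. Reads from identical copies cannot be placed on one of them by these bases alone. No source used here gives the read length or how the authors' processing treated such reads. Over the copy and 150 bp on either side, the share of 36-base words that occur once had a median of 47.4% at the 16 copies with a peak and 45.3% at the 8 without. The range was 12.5% to 85.7% with a peak and 0% to 100% without. Both copies of a pair on chromosome I without a peak had 0%. Which of the copies the protein bound was not tested.

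Family 2 and family 3 were smaller. Family 2 had 15 peaks, 6 of them among the 213, with signals from 94.8 (near Y54G2A.19) to 699 (near rpa-2). Both of these peaks were joined to it through other peaks, and neither lies at a copy of the window described next. The window of the peak near K07D4.2 (chromosome II, 4047959 to 4048170, signal 395, with 188 in replicate 1 and 213 in replicate 2) had 17 copies, 10 of them with a conservative peak. The peak near Y116A8A.150 (chromosome IV, 16845509 to 16845717) had 152 in replicate 1 and 194 in replicate 2. The 6 intergenic peaks of the family were all in both replicates' thresholded lists. In the sequences shown, the summits were at base 58 of the shared run near K07D4.2 and at base 37 near Y116A8A.150, so they lie beyond the bases printed.

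Family 3 was mostly intergenic. It had 5 peaks, 4 of them among the 213, and all 5 were in both thresholded lists. The stronger of the 2 peaks near K08F11.1 (chromosome IV, 4727928 to 4728154) had 219 in replicate 1 and 274 in replicate 2, and the weaker (4720625 to 4720771) had 94.5 and 127. The others were near F40E3.3 on chromosome I (signal 292) and near K08D10.11 on chromosome IV (signal 196). Of the 8 copies of the window, 6 carried a conservative peak, among them one inside a pseudogene near djr-1.2 (signal 108) whose own summit window matched too little of the repeat to be joined to the family. Family 4 had only 2 peaks, near F09E5.7 (signal 87.0) and C14C11.7 (signal 76.0), and neither was in both lists.

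**Figure D2:**
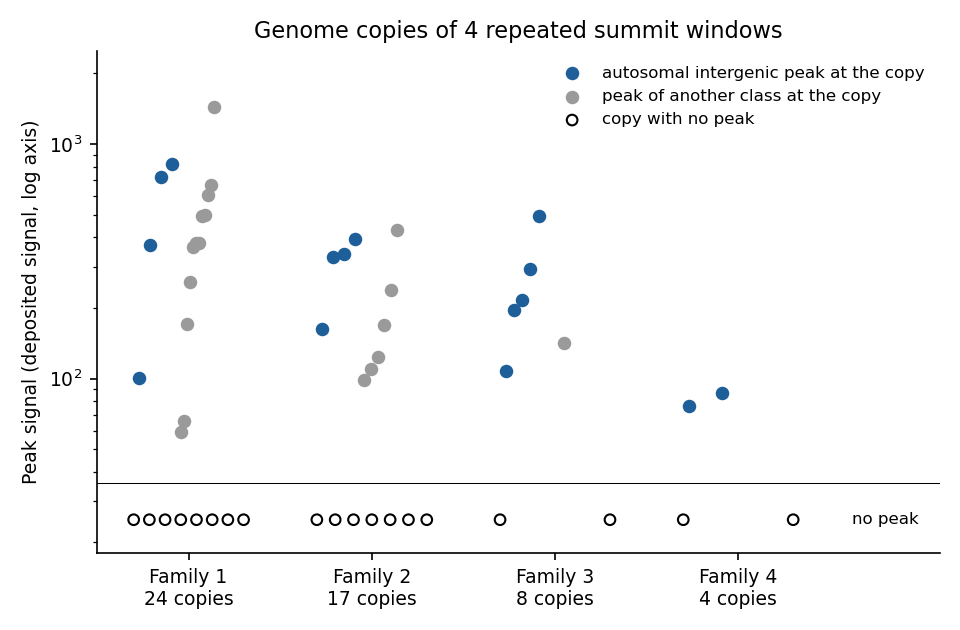
Signal (y axis, deposited units, log axis) of the conservative peak at each genome copy of the representative window of families 1 to 4. Filled points are copies with a peak, blue for autosomal intergenic peaks and grey for other classes, and open points below the line are copies with no peak: 8 of 24, 7 of 17, 2 of 8 and 2 of 4 copies.

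GA-rich words recurred at the summits. GAGAGA or its complement TCTCTC lay within 50 bp of the summit, that is, whole within the 101 bp window, at 73 of the 213 peaks (34.3%, 28.2 to 40.9), where 24.4% of all conservative peaks had it. The share was 21.7% (19.1 to 24.6) in the 866 other autosomal peaks and 20.8% (17.5 to 24.6) in the 509 autosomal promoter peaks. For the 159 autosomal gene-body peaks it was 25.8% (19.6 to 33.1), an interval that overlaps that of the 213. In the same 213 regions it was 6.10% in windows 400 bp to the left of the summit and 5.63% in windows 400 bp to the right. Of all 184774 windows of 101 bp that fit into autosomal DNA eligible under the rule, 5.41% held it. Among 5398 weaker summits of the joint ranked list that meet the same rule and overlap no conservative peak, it was 9.61%. A match is a description of the sequence, not a shown binding site. GAGAGA and the words described below were chosen with earlier results of these data known. Their shares at summits against the surrounding DNA are therefore a description and no independent support. No test was run between these sets, and the intervals cover counting error over peaks only.

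A second word, ACGCAG or its complement CTGCGT, had a similar pattern at a lower level. It was at 46 of the 213 summits (21.6%, 16.6 to 27.6), where 15.5% of all conservative peaks had it, and at 14.8% (12.6 to 17.3) of the other autosomal peaks. It was in 0.939% of the windows on either side, in 1.97% of all eligible windows and in 3.74% of the weaker ranked summits. Both words were at 24 of the 213 summits (11.3%, 7.69 to 16.2), where 5.27% of all conservative peaks had both, and at 4.73% (3.51 to 6.36) of the other autosomal peaks. Among the autosomal gene-body peaks, 15.7% (10.9 to 22.2) had ACGCAG and 7.55% (4.37 to 12.7) had both words. These intervals overlap those of the 213.

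The bases next to ACGCAG were far from uniform. Read in the direction of ACGCAG and taking the copy nearest to each summit (n = 46), the 4 bases before it followed the pattern AGAG, which was matched from left to right by 71.7%, 82.6%, 76.1% and 67.4% of the copies. After it, the pattern AGA was matched by 63.0%, 47.8% and 67.4%, and 37.0% had a C at the middle base. The base 5 before it showed no preference, with each base at 23.9% or 26.1%. The extended word GAGACGCAG (complement CTGCGTCTC) was at 28 of the 213 summits (13.1%, 9.25 to 18.3), where 7.65% of all conservative peaks had it, and in 0.537% of all eligible windows. Over all conservative peaks, 103 windows held GAGACGCAG and 209 held ACGCAG, and among eligible windows 992 and 3640 did. The neighbouring bases were not counted in other sets, and 6 of the 46 peaks are in repeat families. GAGACGCAG contains ACGCAG, and GAGAGA can overlap either: the occurrences of GAGAGA and ACGCAG overlapped at 10 of the 24 summits with both.

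The peak near T04C4.3, shown above, holds several of these words. Its window has CTGCGTCTC, further copies of TCTCTC and also CACGTG. The peak near Y17G7B.17 (chromosome II, 12102429 to 12102748, signal 181, 97.1 in replicate 1 and 84.3 in replicate 2) holds a run of GA repeats that ends in GAGACGCAG. The peaks near sup-26 and cmd-1 hold neither GAGAGA nor ACGCAG.

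The words were more frequent near the summits than farther out. In bins of 40 bp, GAGAGA was found at 17.8% of the peaks in the bin centred on the summit and at most at 3.29% in any bin from 220 to 500 bp to the left and 6.57% in any from 220 to 500 bp to the right.

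**Figure D3:**
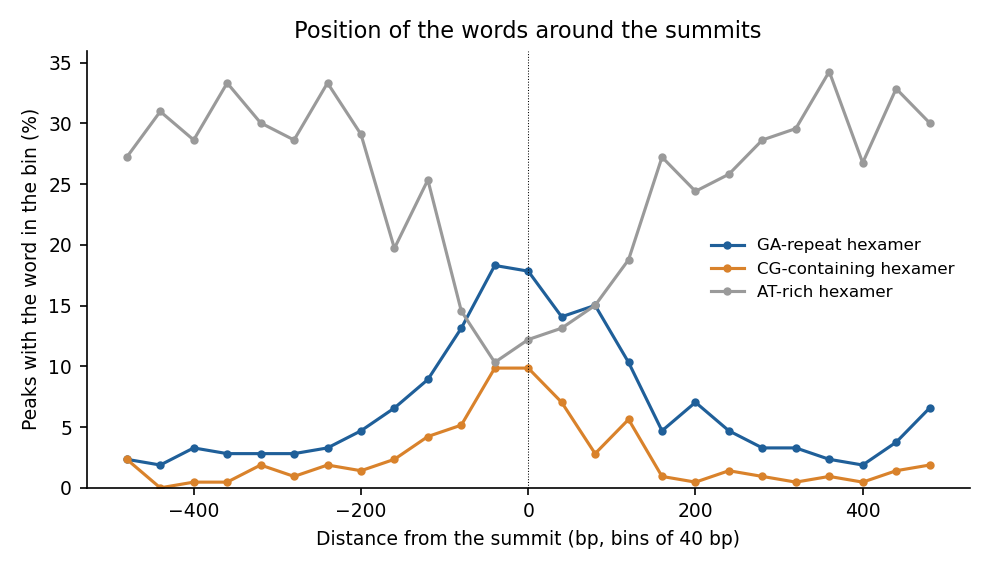
Share of the 213 peaks (y axis, %) with each hexamer in bins of 40 bp by distance from the summit (x axis, bp, negative to the left on the plus strand). The GA-repeat hexamer (GAGAGA) and the CG-containing hexamer (ACGCAG) reach 18.3% and 9.86% near the summit, where the AT-rich hexamer (AAAAAT) drops to 10.3%.

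The E-box CACGTG, its own complement, was at 22 summits (10.3%, 6.92 to 15.1), where 6.98% of all conservative peaks had it. It was in 1.88% of the windows to the left, 0.939% of those to the right and 1.499% of all eligible windows. The AT-rich word AAAAAT or ATTTTT had the opposite pattern. It was at 50 of the 213 summits (23.5%, 18.3 to 29.6), where 20.7% of all conservative peaks had it, and in 54.9% and 58.2% of the windows to the left and right and 51.7% of all eligible windows. CACGTG and AAAAAT cannot overlap GAGAGA or ACGCAG by more than 1 end base.

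Base composition differed between these sets too. GC content was 44.8% ± 8.97 (SD, n = 213) in the summit windows, against 34.003% ± 8.01 and 33.3% ± 8.11 in the windows to the left and right, 39.4% ± 8.73 at the weaker ranked summits and 34.6% over all eligible DNA. The other autosomal peaks had 48.2% ± 8.45 and the promoter peaks 48.5% ± 8.06, so they were higher in GC and held GAGAGA and ACGCAG at lower shares. The autosomal gene-body peaks had 45.4% ± 8.75, close to the 213. How much of the difference in words goes with base composition was not tested.

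**Figure D4:**
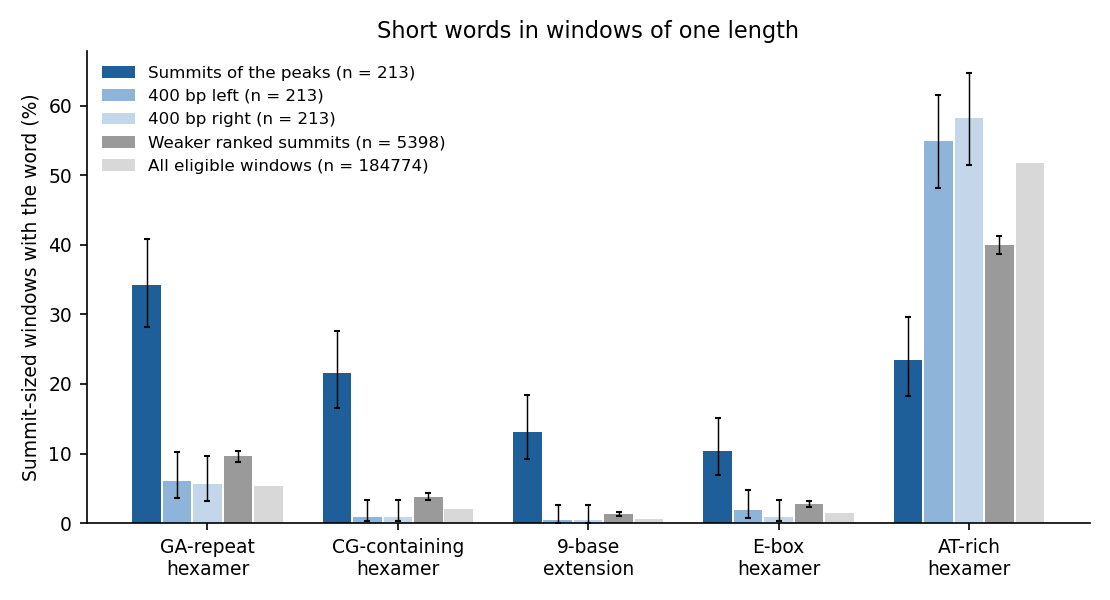
Share of 101-bp windows (y axis, %) that hold each word, with 95% Wilson intervals where drawn: GA-repeat hexamer GAGAGA, CG-containing hexamer ACGCAG, its extension GAGACGCAG, the E-box CACGTG and the AT-rich hexamer AAAAAT. For the first 4 words the 213 summits stand above the 4 comparison sets drawn, with 34.3% against 5.41% to 9.61% for the GA-repeat hexamer, and below them for the AT-rich hexamer, with 23.5% against 39.996% to 58.2%. The other autosomal peaks, not drawn, had the GA-repeat hexamer at 21.7%. The words were chosen with earlier results of these data known.

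Peaks with these words had the higher median signals. The 73 peaks with GAGAGA had a median signal of 102 (quartiles 83.1 to 149), and the 140 without it 81.6 (65.2 to 102.5). Of those with it, 50.7% were in both replicates' thresholded lists, and of those without it 31.4%. The 24 peaks with both words had a median signal of 124 and the 118 with neither 79.1. The quartile ranges overlap in each case. Of the 25 windows with near-identical copies, 2 held GAGAGA and 6 ACGCAG, and of the 188 without, 71 and 40 did.

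The X chromosome offers the class most like this one, with 80 conservative peaks under the same rule. The 213 autosomal peaks had GAGAGA at 34.3% (28.2 to 40.9) and ACGCAG at 21.6% (16.6 to 27.6) of summits, against 16 of 80 (12.7% to 30.05%) and 8 of 80 (5.15% to 18.5%) summits on X. Both words together were at 24 autosomal summits and at 0 of the 80 on X, which allows a share of up to 4.58% (Wilson). The median signal was 87.0 for the autosomal peaks and 92.8 for those on X, and 38.0% against 48.8% (38.1 to 59.5) were in both replicates' thresholded lists. The intervals overlap for each word alone and for the lists, and none of these differences was tested.

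The peaks were spread over all autosomes. There were 39 on chromosome I, 56 on II, 43 on III, 35 on IV and 40 on V. The DNA eligible under the rule came to 19.2 Mb, or 23.2% of the autosomes, so there were 11.1 peaks per Mb of it. By chromosome this was 12.6 on I, 14.3 on II, 14.1 on III, 10.4 on IV and 6.96 on V, which also had the most eligible DNA (5.75 Mb). The median signal by chromosome ranged from 81.0 on V to 98.1 on I.

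Gaps between convergent genes held few of the peaks. Of the 213, 13 (6.10%, 3.60 to 10.2) were between genes that point towards each other, and such gaps make up 14.5% of the eligible bases. Gaps between tandem genes held 136 (63.8%, 57.2 to 70.0, against 55.4% of bases) and divergent gaps 64 (30.05%, 24.3 to 36.5, against 29.99% of bases). In the thresholded list of replicate 1 alone, that is without replicate 2, the convergent share was 10.3% (5.96 to 17.1), and in that of replicate 2 alone it was 9.32% (5.29 to 15.9). The gene nearer to the summit faced it with its 5′ end at 105 peaks (49.3%, against 52.4% of bases). It did so with its 3′ end at 108 (50.7%, against 47.5% of bases).

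Few peaks were very far from a start site. The distance to the nearest TSS had a median of 1859 bp and reached 9654 bp. Over 5000 bp from any TSS there were 13 peaks (6.10%, 3.60 to 10.2), where 15.03% of eligible bases lie. The 2000 to 5000 bp range held 86 (40.4%, 34.01 to 47.1, against 37.7% of bases). The remaining 114 were nearer, 51 of them in the nearest class of the location plot (23.9% against 19.6% of bases) and 63 in the next (29.6% against 27.7%). The gap between the flanking genes had a median of 4978 bp, and the median over eligible bases was 5990 bp.

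The 5 farthest peaks were of moderate signal. The farthest, on chromosome IV at 3160855 to 3161174 near T23E1.1, had 30.5 in replicate 1 and 46.2 in replicate 2, and was in the thresholded list of replicate 2 alone. The next, on chromosome V at 4063558 to 4063877 and 8593 bp from the TSS of djr-1.2, lies inside a pseudogene (WBGene00023264) beside a copy of the family 3 window, and had 57.5 in replicate 1 and 47.7 in replicate 2. On chromosome III, a peak 8330 bp from the TSS of aakg-1, which encodes a regulatory subunit of AMP-activated kinase, had 66.7 and 80.3, one near F54F12.1 had 60.3 and 64.8, and one near C46F11.6 had 26.7 and 39.9.

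**Figure D5:**
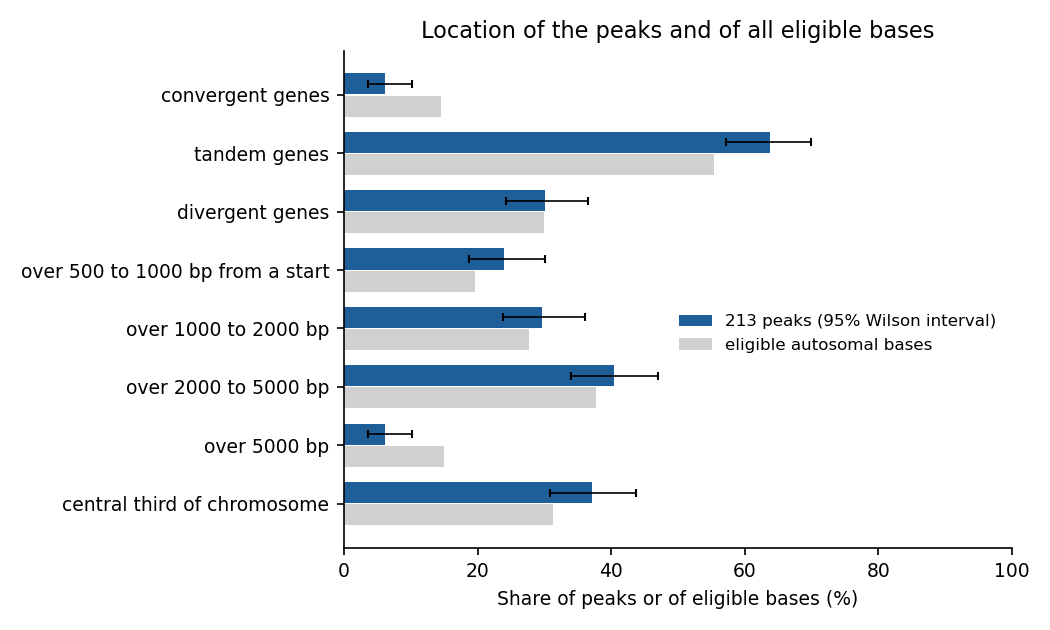
Share (x axis, %) of the 213 peaks, with 95% Wilson intervals, above the share of eligible autosomal bases, by the orientation of the flanking genes, the distance to the nearest TSS and the position in the chromosome. Convergent gaps and distances over 5000 bp each hold 6.10% of the peaks, against 14.5% and 15.03% of the bases.

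The middle of a chromosome, between 1/3 and 2/3 of its length, held 79 of the peaks (37.1%, 30.9 to 43.8), where 41.2% of all conservative peaks lay, and 31.4% of eligible bases lie there. For the other autosomal peaks the share was 44.8% (41.5 to 48.1). The autosome centres are the gene-dense parts of worm chromosomes and the arms the repeat-rich ones.

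The nearest gene of any kind was protein-coding at 157 peaks, a pseudogene at 18 (8.45%, 5.41 to 13.0), a gene of the class ncRNA at 15, a lincRNA at 12, a snoRNA at 7 and a piRNA at 4. The same shares were not computed for eligible DNA or for other peaks, so these counts cannot be called many or few. Inside a pseudogene lay 3 summits. Besides the one near djr-1.2 these were on chromosome V at 7432571 to 7432661 near srw-71 (signal 96.0, 44.4 in replicate 1 and 47.1 in replicate 2) and on chromosome III at 11112759 to 11113078 near sup-35 (82.4, with 31.7 and 46.0). A further 3 lay inside long non-coding RNA genes, linc-128, linc-91 and linc-131, each over 500 bp from its 5′ end.

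Some peaks had company. Another conservative summit lay within 2 kb of 82 of the 213 (38.5%, 32.2 to 45.2), where 36.1% of all conservative peaks had one. With the low-signal peaks that overlap a stronger one left out, the share was 25.3% (19.7 to 31.8) of 194, where 22.7% of all conservative peaks had one. Among the 213 themselves there were 23 clusters of 2 and 4 of 3 peaks, and 16 of these 27 clusters held such a low-signal overlapping peak. The cluster of 3 without one lies on chromosome II between ztf-27 and T09F3.2, at 10388052 to 10388371, 10389091 to 10389410 and 10390371 to 10390690. Its signals were 69.8, 82.6 and 81.6. The other clusters of 3 lay near rpa-2 (signals 78.7, 10.1 and 699), between mnk-1 and cdc-48.1 (85.4, 10.9 and 3.35) and between ubc-8 and Y94H6A.10 (107, 90.8 and 6.10).

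The 500 bp limit cut through a continuous range of distances. The 6 just inside it, 3 of them at the same distance, lay 504 bp (near F07F6.8, signal 70.6), 505 bp (vps-39, 725), 507 bp (K12H4.5, 108) and 512 bp (Y62F5A.12, 146, the helix-loop-helix gene hlh-11, 112, and Y59A8B.24, 94.7) from a TSS. The 5 just outside the class lay 494 bp (B0205.9, 77.5), 487 bp (lin-28, 72.6), 483 bp (T21B10.3, 78.9) and 480 bp (lin-59, 94.4) from a TSS, and 486 bp from the 5′ end of the piRNA gene 21ur-13651 (67.0). Within the class, the 114 peaks up to 2000 bp from a TSS had a median signal of 90.5 and the 99 farther away 83.6, and GAGAGA was at 34.2% and 34.3% of them.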

How the data were processed

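ChIP-seq peak lists of 2 biological replicates of 1 group were used. The deposited signal of each peak is the peak caller's value in the authors' files, with no scaling stated; per the deposited text files the lists are in ce11 and come from the filtered alignments of each replicate, or of both, with a further input whose role is not stated. No source used here gives the aligner, the peak caller or the read length, and depth is unknown. The lists were thresholded by the authors on the irreproducible discovery rate. The members, words and named peaks were chosen with earlier results of these data known. Named peaks were the 20 strongest, the 3 strongest per autosome, the 5 farthest from a TSS, those nearest the limit on each side, the 3 weakest, the 5 strongest each (or fewer) in pseudogenes and with near-identical copies, and the largest clusters. A few repeat-family, non-coding RNA and word-bearing peaks (near Y48G10A.1, Y54G2A.19, K08D10.11, F09E5.7, C14C11.7, linc-91, linc-131, Y17G7B.17, T02H6.11, zip-12 and Y105E8B.9) were named after their values were seen.

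Ensembl release 115 of WBcel235 gave genes and start sites, and the RefSeq WBcel235 genome the sequences. Eligible DNA is every autosomal position that meets the rule. Overlap meant at least 1 bp. The signal of a peak in a replicate is that of the overlapping peak of that replicate's ranked list with the nearest summit, so overlapping peaks can share a value. Copies were found with blastn 2.17.0 (words of 11 bp, E-value 1e-05, no masking of simple repeats). The representative window of a family was that of its strongest autosomal intergenic peak outside chromosome I. Counts and shares were computed with Python 3.11.15, pandas 2.3.3 and scipy 1.17.1, with 95% Wilson intervals that cover counting error only, and no test was run. The functions behind them were tested on simulated data. In the joint ranked lists, 4 columns of member signals were not used.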

Additional observations from a re-analysis of the deposited data

How the results depend on the processing

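Of 147 comparisons of 15 results with their values under 15 alternatives, 114 stayed within the reported error (within 1.5 times for the number of peaks) and 33 moved. Some were bound to change by their setting, such as the share inside pseudogenes once these count as genes. The median signal above the list's median is another. With 1 replicate's list, the share in both lists became the share in the other list. The tally is therefore not a measure of robustness. The share in the middle of the chromosomes was 37.1% as reported, above the 31.4% of eligible bases. Among peaks with signals above the list's median it was 27.6%, which is below that share. With 1 replicate's thresholded list alone in place of the joint list (without replicate 1 or without replicate 2), 117 to 118 peaks met the rule, with a median signal of 53.6 to 60.2. In these lists 65.0% to 66.1% of the peaks were also in the other list, 10.3% to 13.6% were nearest to a pseudogene, 9.32% to 10.3% lay in convergent and 56.8% to 59.8% in tandem gaps, 12.8% to 22.03% had a neighbour within 2 kb, 22.2% to 29.7% held ACGCAG, and GC content was 45.7% to 46.1%. Among the conservative peaks with signals above the list's median, 105 met the rule, with a median signal of 120.4, 67.6% in both lists, 27.6% in the middle of the chromosomes, 13.3% with a neighbour, 45.7% with GAGAGA and 46.96% GC. A limit of 250 bp gave 320 peaks, 29.7% of autosomal peaks, with 46.01% GC, and one of 1000 bp gave 13.7% of autosomal peaks. With pseudogenes counted as genes, 0% lay in one and 5.34% were nearest to one. The share with a neighbour was 23.5% within 1 kb, 52.1% within 5 kb, and 25.3% within 2 kb without low-signal overlapping peaks. The share with copies was 20.7% at 80% identity over 50 bp. With 100 bp on either side of the summit, 45.1% held GAGAGA and 30.99% ACGCAG, at 43.4% GC. The alternatives without low-signal overlapping peaks and without repeat families were chosen after seeing the data. No paired analysis was possible because there is only 1 group. Depth is unknown, no library without the tag was analysed, and the signal scale is the peak caller's. Peaks that overlap or share repeat sequence are not independent, so the Wilson intervals may be too narrow. Reads from identical copies could not be followed.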
